A study of Homo sapiens with 6 samples.

Results

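Matrix metallopeptidases (MMPs) are zinc-dependent enzymes that cut proteins of the extracellular matrix and of the cell surface. The 10 genes described here were chosen by name, as members of this family, and all 16 probe sets that the array annotation assigns to them were used, out of 54675 probe sets on the array. The choice was made with earlier results of these data known. The genes are the collagenases MMP1 and MMP13, the gelatinases MMP2 and MMP9, the stromelysins MMP3 and MMP10, the membrane-type enzyme MMP14, and MMP7, MMP12 and MMP19, which lie outside these classes. None of the 16 probe sets is shared with another gene symbol. MMP14 has 4 probe sets, MMP2 has 3, MMP19 has 2 and each of the other genes has 1.

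RNA came from NCI-H226, an established human mesothelioma cell line, grown either as an adherent monolayer or as a spheroid. The monolayers were kept in medium with serum. For the spheroids, nearly confluent cells were detached with Accutase, spun down in wells coated with poly-HEMA, a polymer to which cells do not adhere, at 10000 cells for each spheroid, and left for 24 hours without any added matrix. Each group has 3 biological replicates with 1 array each, and detachment, centrifugation and three-dimensional growth cannot be told apart in this comparison. The arrays read bulk RNA of a single cell line, so fewer cells of a kind and less RNA per cell cannot be told apart either.

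MMPs are made as inactive precursors whose propeptide has to be removed. Collagenases cleave the triple helix of fibrillar collagens, gelatinases degrade denatured collagen and the type IV collagen of basement membranes, and stromelysins cut a broad range of matrix proteins and can activate other MMPs. MMP14 sits in the plasma membrane and, with the inhibitor TIMP2 as an adaptor, converts the precursor of MMP2 to its active form. Several genes of the family are induced through the transcription factor AP-1, and mesothelial tumors are known for invading along the pleura through matrix of this kind. Levels of RNA say nothing on their own of the activity of the enzymes.

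Of the 10 genes, MMP10, MMP7 and MMP14 were matched in the RefSeq promoter table used here, and their 3 promoters are shown for that reason. MMP10 and MMP14 were called higher in spheroids, and MMP7, which lies in the same gene cluster as MMP10, did not pass the test. Each line gives the 100 bases before the RefSeq start of the gene in build GRCh38.p14, read 5′ to 3′ on the strand of the gene, and capitals mark matches to the AP-1 letters TGANTCA or to the TATA letters TATAAA, searched on both strands.
MMP10, chr11:102780629-102780728, minus strand: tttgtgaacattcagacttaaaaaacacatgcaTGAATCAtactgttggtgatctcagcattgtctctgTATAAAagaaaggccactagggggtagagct
MMP7, chr11:102530748-102530847, minus strand: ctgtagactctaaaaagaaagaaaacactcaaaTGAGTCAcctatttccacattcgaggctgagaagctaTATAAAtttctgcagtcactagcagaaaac
MMP14, chr14:22836485-22836584, plus strand: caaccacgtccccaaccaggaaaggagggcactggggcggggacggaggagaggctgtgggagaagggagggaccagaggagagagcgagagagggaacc

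MMP10 and MMP7 have 1 AP-1 match each, TGAATCA and TGAGTCA, and in both it begins 67 bases before the start of the gene. Their TATA matches begin 31 and 30 bases before it and do not overlap the AP-1 matches. MMP14 has neither in this window. Of 35116 promoters in the table, 2.75% hold an AP-1 match in the same 100 bases, 4.99% hold a TATA match and 0.208% hold both. A match of letters describes the sequence and is not a measured binding site.

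Before the results, the arrays were compared with each other. Median signals were 14.6 to 14.7 in the monolayers and 15.2 to 18.0 in the spheroids, so the log2 signals were centred array by array, which moves the median log2 fold change over all probe sets from 0.07 as deposited to -0.08. For ACTB the signal at the 3' end over that at the 5' end, which rises as RNA degrades, was 1.09 to 1.11 in monolayers and 1.11 to 1.23 in spheroids, with every spheroid above every monolayer. The same ratio for GAPDH was 0.882 to 0.914 in monolayers and 0.890 to 0.914 in spheroids, and there the groups overlapped. The part of these ratios in the results was not tested. All 10 mesothelial markers on the list fixed for this check were measured. Among them the signals of WT1, KRT7, KRT8 and KRT18 were at least 1347 on every array and MSLN ran from 179 to 409. Monolayer 1 stood apart: its correlation with the other monolayers was 0.937 and 0.939, where monolayers 2 and 3 reached 0.950, and its signal of KRT5 was 1845 against 129.9 and 79.3. Spheroid 1 was also highest of its group for KRT5, at 910.5 against 266.7 and 290.4. Of 6 measured leukocyte and macrophage markers, 5 fibroblast markers and 4 endothelial markers, limma called 0, 0 and 0, and 2, 0 and 1 had an unadjusted p under 0.05. The summed signal of the leukocyte and macrophage list was 117 to 136 in monolayers and 164 to 189.8 in spheroids. The monocyte and macrophage marker CD14 had 13.01 to 27.9 in monolayers and 39.7 to 50.7 in spheroids, and the leukocyte marker PTPRC had 1.56 to 6.70 and 12.1 to 13.9. In both the groups did not overlap, and both had an unadjusted p under 0.05 (limma adjusted p = 0.117 and 0.106). The macrophage marker CD163 did not exceed 4.397 on any array. The fibroblast list summed to 490 to 832 in monolayers and 588 to 622 in spheroids, with PDGFRB, a growth factor receptor of fibroblasts, the nearest to a call at a log2 fold change of 0.82 (limma adjusted p = 0.232). FAP and THY1 of that list had log2 fold changes of -1.13 and -0.37 (limma adjusted p = 0.253 and 0.410). DCN and LUM had 0.64 and 0.77 (limma adjusted p = 0.276 and 0.635). The groups did not overlap for FAP, lower in spheroids, or for DCN, higher in spheroids. FAP was dim, with signals of 2.82 to 9.64. The endothelial list summed to 52.1 to 236 and 110.2 to 208, with VWF, the von Willebrand factor, at 2.01 (limma adjusted p = 0.115). VWF had 2.66 to 3.89 in monolayers and 21.4, 5.41 and 23.6 in spheroids. CDH5, TIE1 and PECAM1 of that list had log2 fold changes of -0.76, 0.07 and 0.31 (limma adjusted p = 0.646, 0.975 and 0.618). Among mesothelial markers PDPN, podoplanin, was called higher, at 1.10 (limma adjusted p = 0.0396). CALB2, calretinin, had 1582, 163 and 83.6 in monolayers and 1317 to 2238 in spheroids, with monolayer 1 inside the range of the spheroids. Its log2 fold change was 2.49 (limma adjusted p = 0.125). THBD, thrombomodulin, was lower on every spheroid array than on any monolayer array, at a log2 fold change of -1.24 (limma adjusted p = 0.109). Monolayer 1 was the highest monolayer for THBD, at 349 against 99.9 and 127, and for UPK3B, at 1783 against 692 and 427. The part of these signals in the MMP results was not tested.

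Spheroids expressed 6 of the 10 MMP genes at a higher level than monolayers, and no gene of the 10 was called lower. The 6 genes were MMP1, MMP2, MMP3, MMP9, MMP10 and MMP14, with increases from 1.97-fold for MMP14 to 10.98-fold for MMP2, each gene being read by its brightest probe set. MMP7, MMP12, MMP13 and MMP19 did not pass. A probe set counts as upregulated when its adjusted p from limma, with Benjamini-Hochberg adjustment over all 54613 probe sets tested, is under 0.05. At the level of probe sets 8 of 16 were upregulated and 0 downregulated, where 2.78% of all probe sets were upregulated and 6.65% downregulated. At the level of genes the background was 3.88% upregulated and 9.22% downregulated of 19775 genes. The 16 probe sets had a median log2 fold change of 0.91 and the 10 genes a median of 1.54, against -0.08 over all probe sets and -0.06 over all genes. MMP1, MMP2 and MMP3 are among the genes that the study picked out for their change in these same samples. Their part of the count is therefore not independent evidence. For MMP2 the study also reported more protein in spheroids by Western blot, with an increase of its active form. All 10 genes were chosen with earlier results of these data known, so the choice itself can raise the count, which was not tested.

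**Figure D1:**
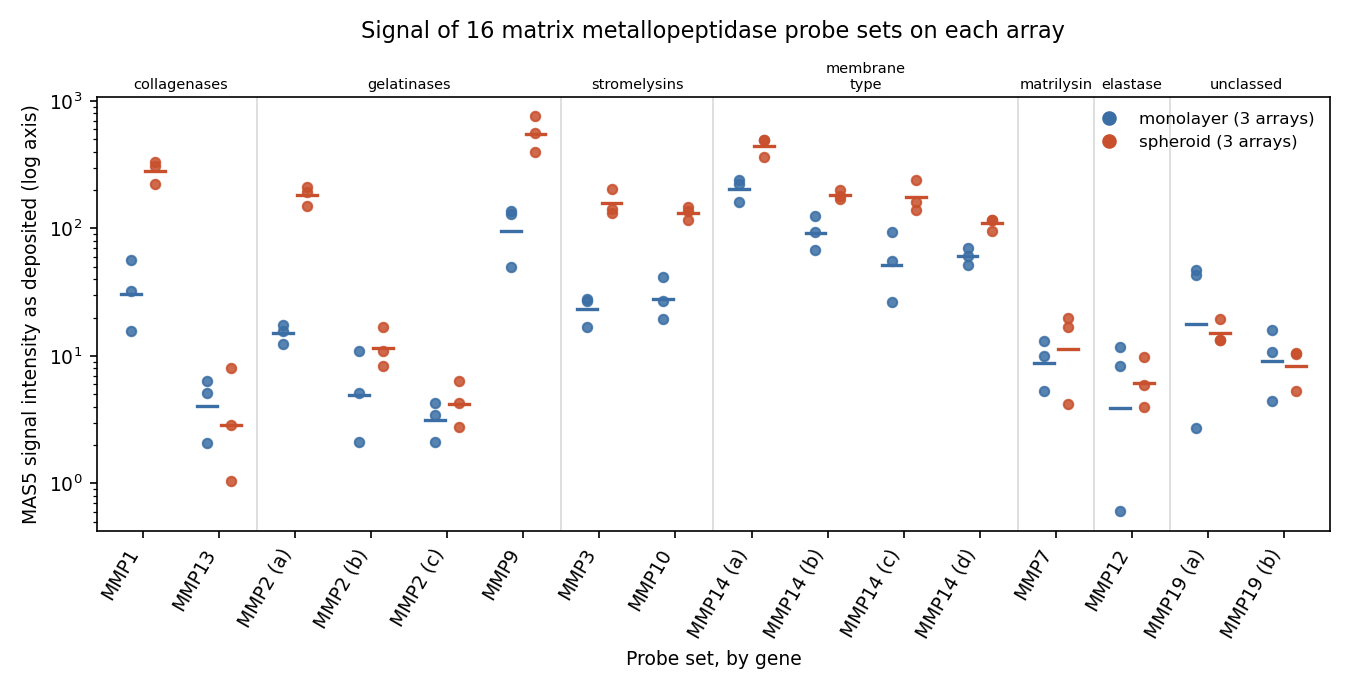
Signal intensity of each of the 16 MMP probe sets on each array, as deposited, on a log axis. Each point is 1 array, horizontal bars are geometric means of 3 arrays, and letters a to d order the probe sets of a gene from brightest to dimmest. All 3 spheroids lie above all 3 monolayers at 9 probe sets: those of MMP1, MMP9, MMP3 and MMP10, the brightest of MMP2 and all 4 of MMP14. Levels of different probe sets are not comparable.

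Of the collagenases, MMP1 was upregulated and MMP13 did not pass. MMP1, the interstitial collagenase, had signals of 15.6, 32.5 and 56.2 on the monolayer arrays and 331, 225 and 309 on those of spheroids. The lowest spheroid was well above the highest monolayer, and on the log2 scale the monolayers spread more widely than the spheroids. MMP1 rose 8.41-fold (log2 fold change 3.07 ± 0.42 SE, limma adjusted p = 0.00285).
MMP13, the collagenase of cartilage and of some invasive carcinomas, had signals of 6.40, 5.09 and 2.09 in monolayers and 2.89, 1.04 and 8.08 in spheroids. The groups overlapped completely, and 3 of the 6 arrays lay under 3.11, the 20th percentile of all signals. Its log2 fold change was -0.64 with a standard error of 0.88 (limma adjusted p = 0.745), and it turned to 0.17 without spheroid 2. No detection calls are in the values used here, so it is not known whether signals of this size lie above background.

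Both gelatinases were upregulated. MMP2, gelatinase A, had signals of 12.5, 15.8 and 17.5 in monolayers and 151, 212 and 193 in spheroids. The monolayers lay close together around the median signal of an array, and the 3 spheroids lay close together far above them. This was the largest change among the 16 probe sets and the one with the smallest adjusted p (log2 fold change 3.46 ± 0.22 SE, limma adjusted p = 2.95e-04). Whether the monolayer signals of MMP2 lie above background is not known, so the size of its fold is uncertain.
The other probe sets of MMP2 were dim and did not pass. The brighter of them had signals of 5.11, 11.002 and 2.13 in monolayers and 8.38, 16.9 and 10.9 in spheroids, with a log2 fold change of 1.09 and a standard error of 0.65. The dimmer one had signals of 2.12 to 4.27 in monolayers and 2.75 to 6.41 in spheroids, with a log2 fold change of 0.28 and a standard error of 0.63. The annotation gives an RNA accession for the bright probe set of MMP2 and none for these.
MMP9, gelatinase B, which is stored by neutrophils and induced in many tumors, had signals of 49.9, 137 and 129 in monolayers and 395, 757 and 561 in spheroids. Monolayer 1 was the lowest, and the groups did not overlap. MMP9 rose 5.21-fold (log2 fold change 2.38 ± 0.37 SE, limma adjusted p = 0.00490), and by 1.91 on the log2 scale without monolayer 1. It lost its call when signals under the 20th percentile were raised to it (adjusted p = 0.0543), although its own signals lie far above that floor.

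Both stromelysins were upregulated as well. MMP3, stromelysin 1, had signals of 26.9, 16.8 and 27.9 in monolayers and 141, 133.2 and 206 in spheroids. The groups were separated by more than the spread within either of them, and MMP3 rose 6.10-fold (log2 fold change 2.61 ± 0.29 SE, limma adjusted p = 0.00122).
MMP10, stromelysin 2, had signals of 19.4, 26.9 and 41.3 in monolayers and 136, 148 and 117 in spheroids. Every spheroid was above every monolayer, and MMP10 rose 4.32-fold (log2 fold change 2.11 ± 0.27 SE, limma adjusted p = 0.00231). Without any one array the log2 fold change stayed between 1.85 and 2.39 for MMP10 and between 2.37 and 2.80 for MMP3.

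The membrane-type enzyme MMP14 showed a smaller change at a signal that was already well above the array median in monolayers. Its brightest probe set had signals of 239, 161 and 222 in monolayers and 360.4, 493 and 495 in spheroids (log2 fold change 0.98 ± 0.19 SE, limma adjusted p = 0.0139). The second had 67.8 to 124 in monolayers and 169.8 to 201 in spheroids, with a log2 fold change of 0.84 ± 0.22 (SE), with a limma adjusted p of 0.0443. The next had 26.6 to 93.8 in monolayers and 140.0 to 241 in spheroids, with a log2 fold change of 1.62 ± 0.39 (SE), with a limma adjusted p of 0.0342.
The dimmest of the MMP14 probe sets, of a type that may also pick up related transcripts, had 51.6 to 70.7 in monolayers and 95.6 to 117 in spheroids, and its log2 fold change of 0.71 ± 0.21 (SE) did not pass, with a limma adjusted p of 0.0743. The groups did not overlap at any of the 4 probe sets. MMP14 was the one gene of the 6 whose call ended when single arrays were left out. Each of the called MMP14 probe sets lost its call when some single arrays were left out. At the brightest probe set the adjusted p was 0.0556 without monolayer 2, 0.0580 without spheroid 2, 0.0627 without spheroid 3 and 0.0623 with the floor, while the log2 fold change without 1 array ran from 0.81 to 1.10.

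MMP7, MMP12 and MMP19 did not pass, and their signals were low or scattered. MMP7, matrilysin, which lacks the C-terminal domain of most MMPs, had 10.0, 5.30 and 13.2 in monolayers and 19.9, 17.0 and 4.22 in spheroids. Its log2 fold change was 0.20 with a standard error of 0.65, and the single lowest value was a spheroid. MMP12, the macrophage metalloelastase, had 8.28, 0.606 and 11.8 in monolayers and 5.96, 9.78 and 3.95 in spheroids. No array exceeded its own median there, and the log2 fold change of 0.51 (standard error 1.05) became -0.83 without monolayer 2, the array with the lowest value.
MMP19, which is expressed in many normal tissues, had signals of 2.72, 43.1 and 47.5 in monolayers and 13.4, 19.6 and 13.4 in spheroids at its brighter probe set. The spheroids lay between monolayer 1 and the other monolayers. Over all arrays the log2 fold change was -0.37 (SE 0.95, limma adjusted p = 0.876), and without monolayer 1 it was -1.72 (limma adjusted p = 0.00737), which would make MMP19 a downregulated gene. Its dimmer probe set had 4.405 to 16.03 in monolayers and 5.31 to 10.5 in spheroids, and without monolayer 1 its log2 fold change was 0.13, so the probe sets of MMP19 disagree on this.

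**Figure D2:**
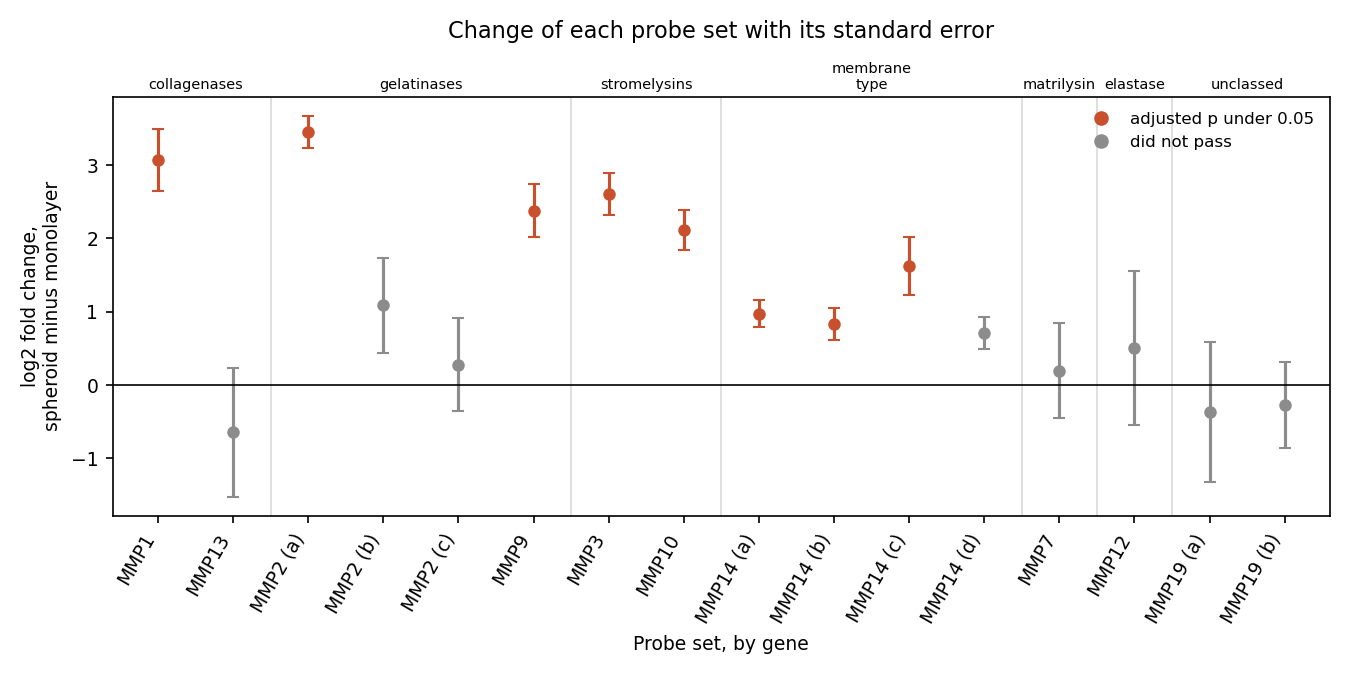
Log2 fold change of each of the 16 probe sets, spheroids minus monolayers of the median-centred log2 signal, with limma's standard error as bars and letters as in the plot of signals. The 8 upregulated probe sets lie between 0.84 and 3.46, the standard errors of MMP12, MMP13 and the brighter probe set of MMP19 are the widest, and no probe set below 0 passed.

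By class, 1 of 2 collagenase genes, 2 of 2 gelatinase genes, 2 of 2 stromelysin genes and the 1 membrane-type gene were upregulated, and 0 of the 3 genes outside these classes were. The median log2 fold change over genes was 1.21 in collagenases, 2.92 in gelatinases and 2.36 in stromelysins. The differences between classes were not tested.
Spheroids lay above all monolayers at 9 of 16 MMP probe sets, where 10.2% of all probe sets show this. At 0 of the 16 did they lie below all monolayers, and the share of all probe sets that do so was not counted. The methods' t-test called 9 of 16 MMP probe sets higher at the methods' threshold without adjustment, against 6.58% of all probe sets. After Benjamini-Hochberg adjustment it called 1, that of MMP2, against 0.489% of all probe sets. Limma without a mean-variance trend called MMP2 and MMP3, and gave adjusted p = 0.0620, 0.0756, 0.0531 and 0.120 for MMP1, MMP9, MMP10 and the brightest MMP14 probe set.

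The genes MMP1, MMP3 and MMP10 also share a place in the genome, which the choice of members did not use. In the RefSeq annotation of GRCh38.p14, 9 MMP genes lie next to each other on chromosome 11 in the order MMP7, MMP20, MMP27, MMP8, MMP10, MMP1, MMP3, MMP12 and MMP13, with no other protein-coding gene between them. The 3 upregulated genes, MMP10, MMP1 and MMP3, are direct neighbors in the middle of this row. MMP8, on the side of MMP10, had signals of 0.462, 7.66 and 12.1 in monolayers and 3.16, 6.08 and 6.40 in spheroids, and MMP12 on the side of MMP3 has been described above. At none of the 6 genes that flank the 3 did the groups separate. The signals of these flanking genes were at or below the array median on nearly every array, and whether they lie above background is not known. MMP7 and MMP10, whose promoters each hold an AP-1 and a TATA match, had log2 fold changes of 0.20 (SE 0.65) and 2.11 (SE 0.27). The part of these matches in the changes was not tested. The other upregulated genes are on chromosomes 16 (MMP2), 20 (MMP9) and 14 (MMP14).

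**Figure D3:**
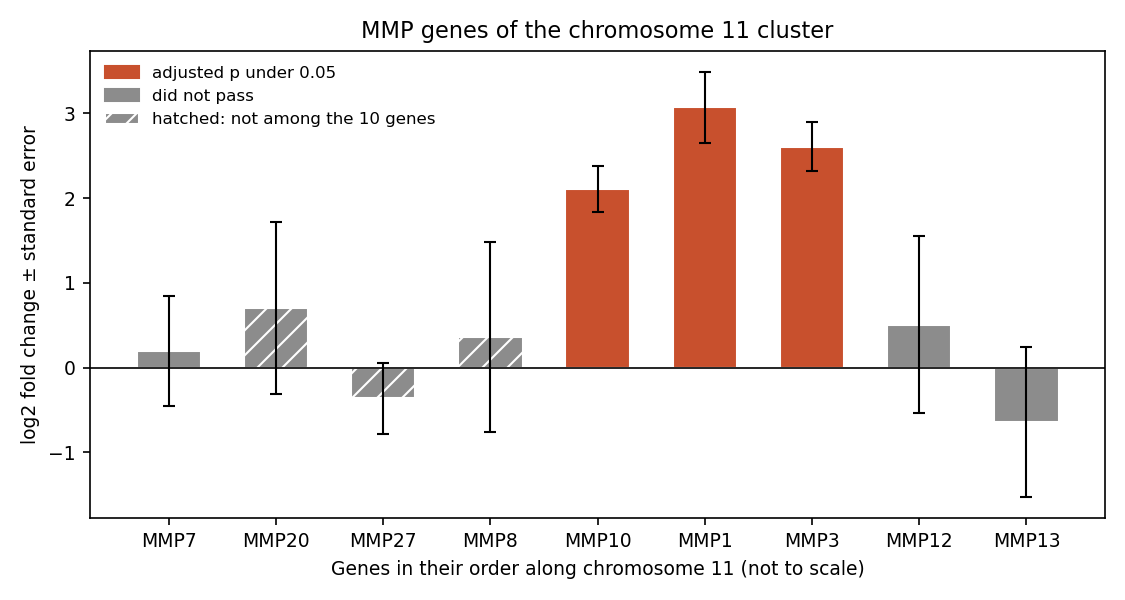
Log2 fold change, spheroids minus monolayers, of the 9 MMP genes of chromosome 11 in their order along the chromosome, each read by its brightest probe set, with limma's standard error as bars. MMP10, MMP1 and MMP3, at 2.11, 3.07 and 2.61, stand beside each other, and the 6 genes around them did not pass.

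Other genes that make, hold back or serve the MMPs were read from 5 lists. The counts below stand beside 3.88% of all genes called higher and 9.22% called lower, so that 1 call in a list of 7 to 12 genes is close to the background. Of 12 other measured MMP genes, 1 was higher and 0 lower, with a median log2 fold change of 0.44. It was MMP28, epilysin, with 18.5, 10.1 and 17.4 in monolayers and 40.2, 52.6 and 29.2 in spheroids (log2 fold change 1.27 ± 0.34 SE, limma adjusted p = 0.0484). The called probe set is of the type that may also pick up related transcripts. The other 4 probe sets of MMP28 had log2 fold changes from -1.95 to -0.27 and did not pass, and the call ended when any single array other than monolayer 1 was left out (adjusted p from 0.0795 to 0.170). The share of genes called higher was 6 of 10 among the genes described here and 1 of 12 among these. Both sets were chosen with earlier results of these data known, so the choice itself can produce such a difference, which was not tested.

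Of 7 inhibitors, 1 was lower, 0 were higher and 6 did not pass, with a median log2 fold change of 0.34. The lower one was TIMP3, a matrix-bound inhibitor of MMPs and related enzymes, with signals of 1627, 1125 and 1185 in monolayers and 804, 780.4 and 512 in spheroids. All monolayers were above all spheroids, and all 4 probe sets of TIMP3 were downregulated, by 1.06 on the log2 scale at the brightest (SE 0.20, limma adjusted p = 0.0109) and with log2 fold changes of -1.505, -1.27 and -1.22 at the others. With the floor the call of the brightest ended (limma adjusted p = 0.0624).
TIMP1, a secreted inhibitor that also binds the precursor of MMP9, had 1208, 2289.9 and 1961 in monolayers and 2515, 4039.7 and 3803 in spheroids. The groups did not overlap, but the log2 fold change of 0.80 ± 0.25 (SE) did not pass, with a limma adjusted p of 0.0864. It passed among probe sets above the median level (limma adjusted p = 0.0456). TIMP2, which binds the precursor of MMP2, had 2972, 2631 and 2438 in monolayers and 3894, 3872 and 3785 in spheroids, with a log2 fold change of 0.38 ± 0.14 (SE), with a limma adjusted p of 0.132. TIMP2 passed on the values as deposited, at 0.53 on the log2 scale (limma adjusted p = 0.00937).
Setting an enzyme against its usual inhibitor within an array removes the scaling of the array. The log2 signal of MMP9 minus that of TIMP1 was -4.60, -4.06 and -3.93 in monolayers and -2.67, -2.42 and -2.76 in spheroids, a rise of 1.58. For MMP2 minus TIMP2 the differences were -7.89, -7.38 and -7.12 in monolayers and -4.69, -4.19 and -4.29 in spheroids, a rise of 3.08. In both pairs all spheroids lay above all monolayers. These are differences between probe sets, so their size at 1 array has no meaning as an amount of RNA, and they were not tested.

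**Figure D4:**
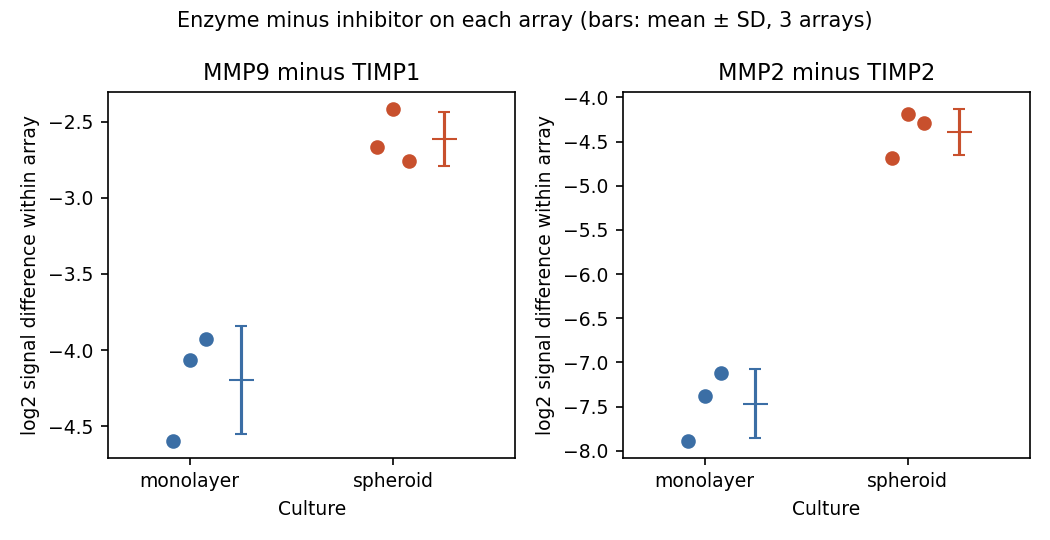
Log2 signal of the enzyme minus log2 signal of its inhibitor within each array, for MMP9 and TIMP1 (left) and MMP2 and TIMP2 (right), with vertical axes that differ. Points are arrays and bars are mean ± SD of 3 arrays: -4.20 ± 0.35 and -2.62 ± 0.18 on the left, and -7.47 ± 0.39 and -4.39 ± 0.26 on the right, monolayers first.

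Among 12 measured activators and binding partners, 1 was higher and 0 lower, with a median log2 fold change of 0.13. LCN2, a lipocalin that forms a complex with MMP9, had signals of 54.4, 87.6 and 61.7 in monolayers and 1263, 1486 and 1392 in spheroids (log2 fold change 4.23 ± 0.19 SE, limma adjusted p = 4.92e-05). LCN2 too was picked out by the study on these samples. PLAU and PLAT, the plasminogen activators, had log2 fold changes of 0.42 and 0.06 with standard errors of 0.51 and 0.57, and FURIN, a convertase that activates MMP14, had 0.21 with a standard error of 0.18.
Of 12 measured matrix substrates, 1 was higher and 0 lower, with a median of 0.10. LAMB3, a laminin chain of basement membranes, had 48.4, 29.1 and 35.8 in monolayers and 79.9, 141 and 98.9 in spheroids (log2 fold change 1.34 ± 0.25 SE, limma adjusted p = 0.0114), and did not pass without spheroid 2 or spheroid 3 (adjusted p = 0.0617 and 0.0537). COL4A1 and COL4A2, the type IV collagen chains that gelatinases degrade, had log2 fold changes of 0.14 and 0.03 with standard errors of 0.38 and 0.24.
Of 11 AP-1 and ETS factors, 1 was higher and 0 lower, with a median of 0.26. FOS, a subunit of AP-1, had 10.1, 14.4 and 12.5 in monolayers and 60.3, 61.3 and 41.0 in spheroids (log2 fold change 1.98 ± 0.29 SE, limma adjusted p = 0.00386). FOSL1, another AP-1 subunit, had a log2 fold change of -0.94 ± 0.31 (SE), with a limma adjusted p of 0.100 and JUN had -0.10 (standard error 0.14).

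**Figure D5:**
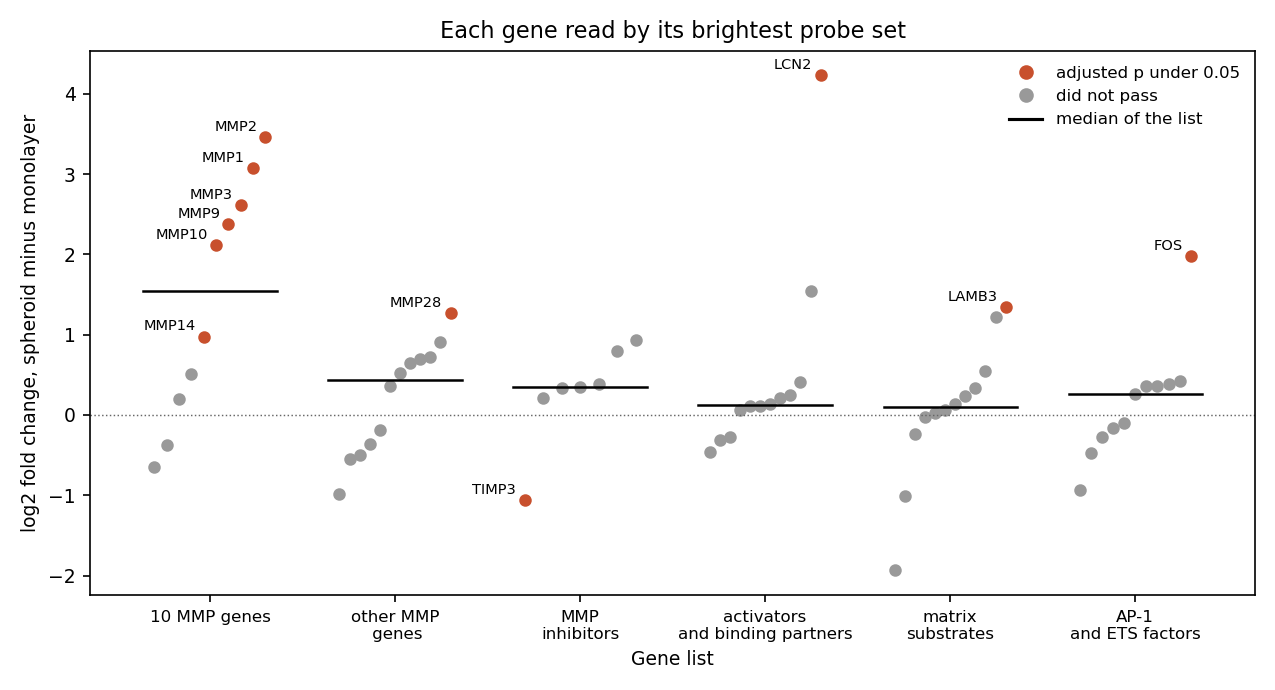
Log2 fold change, spheroids minus monolayers, of the 10 MMP genes and of the genes of 5 lists, each gene a point read by its brightest probe set, with the median of each list as a horizontal line. The 10 MMP genes have a median of 1.54 with 6 genes upregulated, and each of the other lists has a median between 0.10 and 0.44 with 1 gene called.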

How the data were processed

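RNA of 3 monolayer and 3 spheroid cultures was hybridized to Affymetrix Human Genome U133 Plus 2.0 arrays. The deposited signal intensity values are linear MAS5 signals per probe set, which the authors scaled to 1 common 2% trimmed mean (150.0 on each array). The methods also name a normalization to median expression in Genespring, which the deposited values do not show. Probes were named through the platform annotation. After 62 control probe sets were left out, log2 signals centred on each array's median were compared at 54613 probe sets with limma 3.58.1 (R 4.3.3, empirical Bayes with a mean-variance trend, Benjamini-Hochberg adjustment, threshold 0.05, no floor or filter). A gene was represented by its brightest probe set on average. The number of arrays limits the precision. The paper states that the spheroids and RNA came from 3 independent experiments, and does not say how monolayers were paired with them. The fit was tested on simulated data.

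The members, lists and tests were chosen with earlier results of these data known. All 10 genes are named, with up to 4 called genes of each list, and TIMP1, TIMP2, CD14, CD163, FAP, THY1, DCN, LUM, CDH5, TIE1, PECAM1, PLAU, PLAT, FURIN, COL4A1, COL4A2, FOSL1, JUN and MMP8 were added after their values were seen. Some listed genes are not reported here. Promoters were read from RefSeq for the 3 of 10 genes matched. The alternatives were 3 other scalings, a floor at the 20th percentile (a signal of 3.11), a filter at the median level, limma without trend, the methods' t-test with and without adjustment, the mean over a gene's probe sets, a replicate block and leaving out each array.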

Additional observations from a re-analysis of the deposited data

How the results depend on the processing

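The count of 8 upregulated MMP probe sets was 9 with uncentred values, with quantiles made equal, after scaling to the 75th percentile, among probe sets above the median level and by the methods' t-test without adjustment. It was 2 by limma without trend, 4 with signals raised to the 20th percentile and 1 by the methods' t-test with adjustment. Shares of all probe sets called are given above for the main fit and the t-tests. They were not counted for the other settings or with 1 array left out. Whether those changes in count are particular to MMPs therefore cannot be read from them. The count of 6 genes was 2 without trend, 4 with the floor and 1 by the adjusted t-test, and 6 with the mean over a gene's probe sets. The median log2 fold change of 0.91 was 1.87 among probe sets above the median level, since fewer probe sets enter. The 5 calls in the other lists were 2 without trend, 3 with the floor and 2 by the adjusted t-test. Leaving out 1 array gave 5 to 9 MMP probe sets higher (5 without monolayer 2, spheroid 2 or spheroid 3) and 0 to 1 lower, 5 to 6 genes higher and 0 to 1 lower, a median of 0.71 to 1.07, and 3 to 8 calls in the other lists (8 without monolayer 1, 3 without spheroid 2 or 3).

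Deviations from the group means correlated at 0.0909, -0.0131 and 0.0223 between same-numbered cultures. The highest of all 9 correlations was that of the replicate 1 cultures, which also shared high KRT5 and low PLAT, but monolayer 2 correlated best with spheroid 3 (0.0390), so the numbers were not taken to pair the samples. With a replicate block 9 MMP probe sets and 6 genes were higher, the other lists had 9 calls, TIMP1, lowest in replicate 1 of both groups, passed (adjusted p = 0.0115 by limma), and MMP28 lost its call (0.0503).

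Directions turned only at probe sets that had not passed. MMP12 was at -0.25 with the floor. Without 1 array the log2 fold changes ran from -1.43 to 0.17 for MMP13, -0.052 to 0.67 for the dimmest MMP2 probe set, -0.24 to 0.86 for MMP7, -0.83 to 1.30 for MMP12, and -1.72 to 0.34 and -0.80 to 0.13 for MMP19. The cause of these shifts was not tested.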
